A study of Mus musculus with 6 samples.

Results

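The genes described here are the ligands, receptors and a regulator of the epidermal growth factor (EGF) system in mouse small intestinal organoids: the ligands Egf, Tgfa, Areg, Ereg, Hbegf and Btc, the receptors Egfr, Erbb2 and Erbb3, and Lrig1. They are found by symbol, by a rule that uses no measured value, although the family itself was picked with earlier results of these data known, and are 10 of the 32285 features counted in each library. The study asked how intracellular pH affects the fate of intestinal stem cells, and measured single-cell RNA in 6 libraries of organoids derived from the mouse duodenum at day 3 of growth. The wild-type (WT) groups were grown with EIPA, an amiloride derivative that inhibits sodium-proton exchange (+EIPA, 2 libraries), or with its vehicle DMSO (-EIPA, 2 libraries). The CRISPR groups were WT organoids carrying a lentiviral, doxycycline (Dox)-inducible Cas9-EGFP and a guide to the first exon of the targeted gene, grown without Dox (-Dox, 1 library) or with it (+Dox, 1 library). CRISPR lines were grown from single resistant organoids, and the +Dox cells were sorted as live GFP-positive cells whereas the other cells were sorted as live cells, so clone, sort and Dox cannot be told apart from each other in that pair. All groups shared ENR medium, which holds recombinant EGF, so every level below is that of cells already given the ligand.

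EGF-family ligands are made as membrane-bound precursors and are released by cell-surface proteases. Egf, Tgfa and Areg bind the receptor encoded by Egfr, whereas Hbegf, Btc and Ereg bind Egfr and Erbb4. The protein of Erbb2 binds no known ligand and pairs with the others, and that of Erbb3 binds neuregulins and has little kinase activity of its own. In the intestine, Paneth cells and the stroma are known sources of EGF for the stem cells, and LRIG1, a membrane protein that promotes loss of ERBB receptors, marks crypt stem and progenitor cells.

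After filtering, 12083 to 18211 cells per library were kept (87954 in all), with 161670015 to 239368573 unique molecular identifiers (UMIs) per library and a median of 11478 to 17020 UMIs per cell, highest in +Dox. Any pair of libraries shared 33 to 78 cell barcodes. Levels are given as counts per 1000000 UMIs (CPM). Markers of other tissues were near 0: the summed level of 7 immune genes was 0.404 to 0.974 CPM, that of 7 mesenchymal genes was 0.258 to 0.526 CPM and that of 3 endothelial genes was 0.262 to 0.460 CPM, with Cdh5 at 0 in all 6 libraries. Cells were grouped into 23 clusters without use of the 10 genes or of their pathway list, and 8 classes were named from marker genes: stem-cell (ISC-like), Proliferating-like, Enterocyte-like, Goblet-like, Paneth-like, enteroendocrine (EEC-like), Tuft-like and Revival-like, the last being 1 cluster led by Clu, Lgals3, S100a6 and Anxa1 with 85 to 401 cells per library. Between 14.3% and 17.8% of the cells of a library lay in 5 clusters without a name.

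Ereg, Areg and Btc lie near each other on chromosome 5 of GRCm38, with Ereg at chr5:91074622-91093646 and Areg at chr5:91139599-91148432 on the plus strand and Btc at chr5:91357261-91402994 on the minus strand. The gap from Ereg to Areg is 46.0 kb and the gap from Areg to Btc is 209 kb. The other members are spread over 5 chromosomes. The 250 bases before the start of Areg and of Btc are printed because these were the ligands that were higher in both +EIPA libraries than in both -EIPA libraries and past 1.5-fold higher in +Dox. The sequences are those of RefSeq (GRCm38.p6), read 5′ to 3′ on the strand of the gene, at chr5:91139349-91139598 for Areg and chr5:91402995-91403244 for Btc. Capitals mark matches, on either strand, to TGACGTCA, the consensus cAMP response element, and to its first bases TGACG, whose reverse complement is CGTCA.
Areg: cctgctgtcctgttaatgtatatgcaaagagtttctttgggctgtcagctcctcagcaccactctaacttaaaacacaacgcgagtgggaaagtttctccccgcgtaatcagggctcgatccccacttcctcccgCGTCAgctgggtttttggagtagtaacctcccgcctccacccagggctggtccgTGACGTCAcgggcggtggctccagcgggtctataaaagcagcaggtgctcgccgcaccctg
Btc: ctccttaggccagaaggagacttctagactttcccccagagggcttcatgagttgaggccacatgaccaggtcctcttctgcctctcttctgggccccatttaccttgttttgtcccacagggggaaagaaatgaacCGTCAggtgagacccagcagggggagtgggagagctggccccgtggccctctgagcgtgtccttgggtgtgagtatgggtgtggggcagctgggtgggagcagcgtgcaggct
Areg held TGACGTCA from 61 to 54 bases before its start, which includes 2 overlapping matches to TGACG, and a further TGACG from 115 to 111 bases before it. Btc held TGACG from 113 to 109 bases before its start and no TGACGTCA. Upstream sequence was found for 7 of the 10 genes, and among the others Erbb2 held TGACG, from 171 to 167 bases before its start. Of 32851 upstream windows of the same length in the reference, 1.55% held TGACGTCA and 17.8% held TGACG. A match describes the letters only.

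Areg, which encodes amphiregulin, was highest in Revival-like cells in 6 of 6 libraries. Its level there was 542 and 581 CPM in -EIPA, 1080.2 and 1037 CPM in +EIPA, 652 CPM in -Dox and 1850.2 CPM in +Dox. Enterocyte-like cells came next in every library, with 166 and 144 CPM in -EIPA, 292 and 433 CPM in +EIPA, 172 CPM in -Dox and 372 CPM in +Dox. The ranges of these classes did not overlap (957 ± 495 against 263 ± 121 CPM, mean ± SD, n = 6 libraries), nor did that of the enterocyte-like class overlap that of the next class, Goblet-like, at 78.5 ± 34.9 CPM. Of the 2 Goblet-like clusters, a small one of 434 cells led by Zg16 was at a mean of 469 CPM and the other, of 3852 cells, at 40.3 CPM. The remaining classes had overlapping ranges, with means from 42.0 CPM in Paneth-like down to 19.9 CPM in ISC-like cells, 48.0 times below the highest. Because Enterocyte-like cells are many and Revival-like cells few, the enterocyte-like class held the larger part of the Areg UMIs, 37.4% to 56.5% of a library's total, against 7.87% to 25.2% in the Revival-like class, which made up 0.674% to 2.81% of the cells.

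The level of Areg varied among the enterocyte-like clusters. By mean over the 6 libraries, the highest of all 23 clusters was a small enterocyte-like cluster led by Tm4sf4, Cyp3a13 and Apoc2 and with Krt20 and Ada among its leading genes, with 1249, 548, 1161, 1511, 795 and 1433 CPM in -EIPA replicate 1 and 2, +EIPA replicate 1 and 2, -Dox and +Dox. Areg itself was among the 10 leading genes of this cluster, although it was not used to form it. Tm4sf4, Sprr1a and Anxa10 were leading genes both of this cluster and of the Revival-like cluster. Clustered without correction for library, the Revival-like cluster was led by Sprr1a and Tm4sf4, so the border between these classes is not sharp. The Revival-like cluster came next by mean and was above the Tm4sf4-led cluster in -EIPA replicate 2 and +Dox. An enterocyte-like cluster led by Apoa4 followed, at 304, 182, 545, 876, 270 and 690 CPM in the same order. To set cells of unequal depth side by side, each was thinned to 5000 UMIs, which left out 5.71% to 13.7% of the cells of a library. This step leaves out the cells of least depth. The enterocyte-like cluster led by Apoa4 had a median UMI count of 0.344 of that of its libraries. The part of that cluster left out of the thinned Enterocyte-like share was not measured. After thinning, 41.5% to 91.0% of the Revival-like cells, 29.4% to 54.6% of the Enterocyte-like cells and 5.81% to 9.22% of the ISC-like cells held a UMI of Areg. The shares without thinning were 50.6% to 95.9%, 44.5% to 75.7% and 11.3% to 26.0%, at median depths of 12370 to 25976, 11112 to 16882 and 9686 to 14457 UMIs per cell. The part of free RNA in these shares was not measured.

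**Figure D1:**
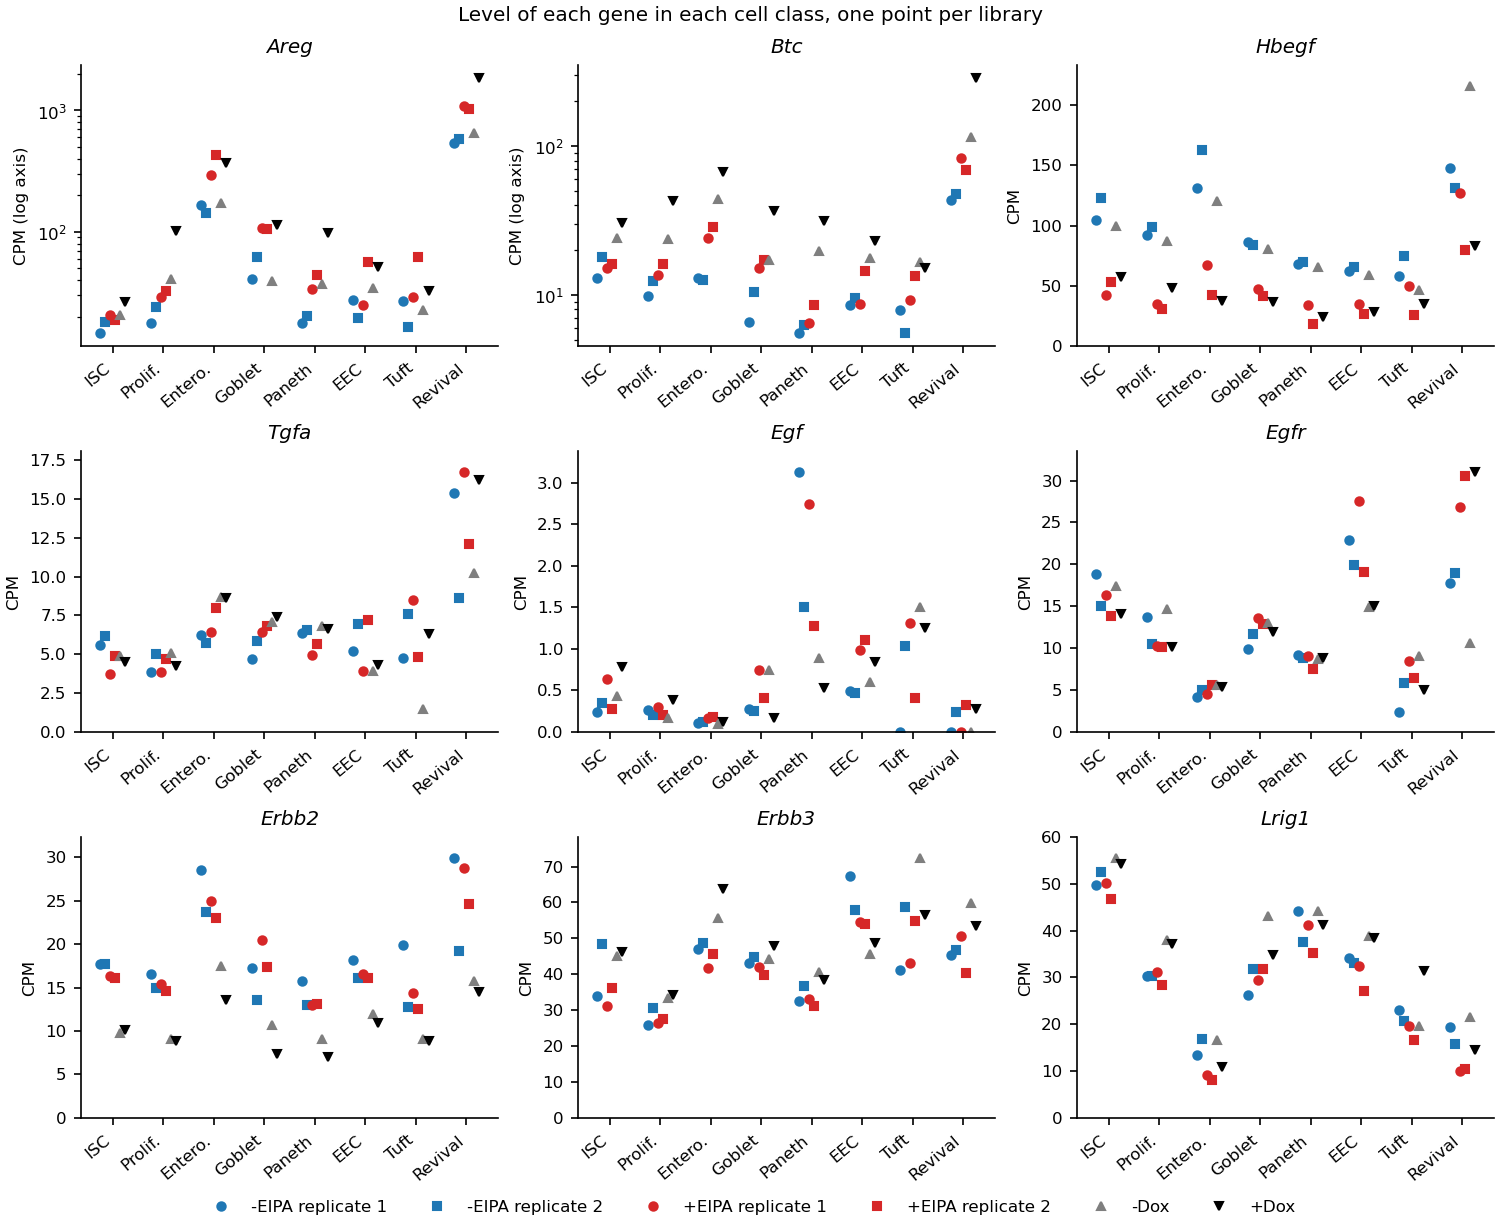
Level of 9 of the 10 genes (CPM, on a log axis for Areg and Btc and on a linear axis from 0 for the others) in each of the 8 cell classes, with 1 point for each of the 6 libraries. Areg stands highest in Revival-like cells (542 to 1850.2 CPM) and Lrig1 in ISC-like cells (46.8 to 55.6 CPM), while Erbb2 and Erbb3 spread less over the classes.

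Btc, which encodes betacellulin, had the same 2 leading classes by mean over the 6 libraries. In Revival-like cells it was at 43.7 and 47.4 CPM in -EIPA, 83.3 and 69.3 CPM in +EIPA, 116 CPM in -Dox and 287 CPM in +Dox, the highest class in 6 of 6 libraries. In Enterocyte-like cells it was at 13.0 and 12.5 CPM in -EIPA, 24.2 and 28.5 CPM in +EIPA, 44.1 CPM in -Dox and 66.9 CPM in +Dox. The ranges of these and of all lower neighbours overlapped, and Btc in both classes was higher in both CRISPR libraries than in any WT library. ISC-like (19.4 ± 6.55 CPM) and Proliferating-like cells (19.7 ± 12.2 CPM) had similar means, with a spread that pools treatments and lines. Within libraries, ISC-like against Proliferating-like cells were at 12.9 against 9.82 and 17.9 against 12.4 CPM in -EIPA. In +Dox they were at 30.4 against 42.6 CPM, and in +EIPA and -Dox they lay closer. Tuft-like cells were lowest by mean at 11.3 ± 4.38 CPM. In -EIPA, ISC-like cells were at 12.9 and 17.9 CPM, in replicate 2 above Enterocyte-like cells. The second place of Enterocyte-like cells thus did not hold in every library.

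Hbegf, the heparin-binding ligand, was spread most evenly of the abundant ligands. Its level in Revival-like cells was 148 and 131 CPM in -EIPA, 127 and 80.0 CPM in +EIPA, 216 CPM in -Dox and 82.9 CPM in +Dox, the highest class in 5 of 6 libraries. In ISC-like cells it was at 105 and 123 CPM in -EIPA, 42.3 and 53.6 CPM in +EIPA, 99.9 CPM in -Dox and 57.7 CPM in +Dox. The highest class mean was 2.84 times the lowest (EEC-like, 46.0 ± 18.1 CPM), and the ranges of all neighbouring classes overlapped. No class mean of Hbegf lay below that of EEC-like cells, whereas the mean of Areg was 19.9 CPM in ISC-like cells.

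Tgfa and Egf were rarer. Tgfa, the ligand TGF-alpha, was highest in Revival-like cells in 6 of 6 libraries, at 15.4, 8.60, 16.7, 12.1, 10.2 and 16.2 CPM in the order of libraries given above, and its mean lay between 4.46 and 7.28 CPM in the other classes, with overlapping ranges. Egf was highest in Paneth-like cells in 4 of 6 libraries, at 3.13, 1.499, 2.74, 1.27, 0.886 and 0.525 CPM. Paneth-like cells held 16.9% to 39.8% of the Egf UMIs of a library and 5.49% to 12.5% of the cells. At this level, 0.487% to 1.94% of thinned Paneth-like cells held a UMI of Egf, against 0.0466% to 0.158% of thinned Enterocyte-like cells. Ereg, which encodes epiregulin, was close to absent from the counts, with 12 UMIs in the 87954 cells.

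Of the receptors, Egfr was highest by mean in Revival-like (22.6 ± 8.15 CPM), EEC-like (19.9 ± 4.82 CPM) and ISC-like cells (15.9 ± 1.99 CPM), whose ranges overlapped. Revival-like cells were the highest class in 2 of 6 libraries, +EIPA replicate 2 and +Dox. In -EIPA, Egfr was at 17.8 and 18.9 CPM in Revival-like cells and at 23.0 and 19.9 CPM in EEC-like cells. In ISC-like cells it was at 18.8 and 15.1 CPM in -EIPA, 16.4 and 13.8 CPM in +EIPA, 17.5 CPM in -Dox and 14.1 CPM in +Dox, above the whole range of the Goblet-like class, the next in order. Enterocyte-like cells, the class with most Areg UMIs, had the lowest Egfr mean at 5.05 ± 0.561 CPM and a range of 4.21 to 5.58 CPM, which overlapped that of Tuft-like cells only. Within the EEC-like class, Egfr was highest in the cluster led by Chgb, Chga, Tac1 and Tph1, genes known from serotonin-producing enterochromaffin cells, with a mean of 39.3 CPM over the 6 libraries. By the same mean, Egfr was at 36.8 CPM in the small Goblet-like cluster led by Zg16, above the Revival-like cluster. Erbb2 and Erbb3 differed less between classes. Erbb2 was at 22.1 ± 6.62 CPM in Revival-like and 21.9 ± 5.40 CPM in Enterocyte-like cells and its mean was between 11.8 and 15.0 CPM elsewhere, with overlapping ranges throughout. Erbb3 ran from 54.7 ± 7.63 CPM in EEC-like and 54.5 ± 11.4 CPM in Tuft-like cells to 29.6 ± 3.57 CPM in Proliferating-like cells, the lowest class in 6 of 6 libraries.

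Lrig1 had the pattern opposite to that of Areg. It was highest in ISC-like cells in 6 of 6 libraries, at 49.8 and 52.6 CPM in -EIPA, 50.1 and 46.8 CPM in +EIPA, 55.6 CPM in -Dox and 54.2 CPM in +Dox, and its range there did not overlap that of the next class, Paneth-like (40.6 ± 3.62 CPM). EEC-like, Goblet-like and Proliferating-like cells followed at means of 34.1, 32.9 and 32.5 CPM, with overlapping ranges and an order that varied between libraries. Enterocyte-like cells were lowest at 12.5 ± 3.73 CPM, just under Revival-like cells at 15.3 ± 4.67 CPM.

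Across 48 sums of 1 class in 1 library, Pearson's r of log2 levels described which genes were most alike, with library, depth and class shared among the points and with 13431 genes compared. Areg was most like Cxcl16 (r = 0.961), a chemokine, and Slc10a2 (r = 0.938), the ileal bile acid transporter. Btc was most like Kitl (r = 0.879), the ligand of KIT, and Hbegf most like Tcim (r = 0.865). Lrig1 was most like Nfia (r = 0.965) and Rgmb (r = 0.927), and the latter is itself a stem-cell marker of the list that named the ISC-like class. Egfr was most like Bok (r = 0.850), Erbb2 most like Erc2 (r = 0.864), Erbb3 most like Btg1 (r = 0.842) and Egf most like Extl3 (r = 0.765). Among the members, Areg and Btc (r = 0.813) and Areg and Tgfa (r = 0.737) went together over the sums, and Areg and Lrig1 went in opposite directions (r = -0.746).

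In sums over all cells, Areg and Btc were higher and Hbegf was lower in both +EIPA libraries than in both -EIPA libraries, while the log2 fold changes of the 3 receptors lay between -0.05 and 0.05. In such sums, more cells of a type and more RNA per cell cannot be told apart. Areg was at 52.7 and 53.1 CPM in -EIPA and at 115 and 164 CPM in +EIPA, higher in both EIPA libraries. Btc was at 10.7 and 12.8 CPM in -EIPA and at 17.2 and 20.3 CPM in +EIPA, again without overlap. Hbegf was at 106 and 114 CPM in -EIPA and at 49.3 and 37.8 CPM in +EIPA, lower in both. The log2 fold changes were 1.49 (SE 0.21) for Areg, 0.76 (SE 0.15) for Btc and -1.26 (SE 0.13) for Hbegf.

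By edgeR's quasi-likelihood test with Benjamini-Hochberg adjustment, the adjusted p was 0.239 for Areg, 0.265 for Btc and 0.239 for Hbegf, so none of them passed at n = 2 libraries per group. This test called 0 of the 9 members that passed the filter on low counts (3 at an unadjusted p under 0.05) and 0% of 15890 genes (1601 at an unadjusted p under 0.05, which is 10.1%). DESeq2, run without that filter, called 3 of 10 members and 579 of 22851 genes, which is 2.53%. Libraries with the same replicate number come from the same experiment, and with the replicate number as a block the test called these 3 members, with adjusted p = 0.0206 for Areg, 0.0125 for Btc and 0.0198 for Hbegf, and 5.28% of the genes. The adjusted p over all 10 alternative settings ran from 4.24e-10 to 0.437 for Areg, from 0.001497 to 0.918 for Btc and from 4.46e-14 to 0.568 for Hbegf. The block leaves 1 residual degree of freedom, so its p-values rest mainly on the spread shared over genes. Groups that did not overlap were common, at 47.1% of genes, and 5 members were among them, Areg and Btc higher and Hbegf, Egfr and Lrig1 lower.

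The receptors and Lrig1 moved little in the same sums. Egfr was at 11.8 and 10.7 CPM in -EIPA and at 10.3 and 10.2 CPM in +EIPA (log2 fold change -0.05, 95% interval -0.28 to 0.18). Erbb2 was at 20.3 and 17.6 CPM against 19.5 and 17.7 CPM (0.05, -0.19 to 0.30), and Erbb3 was at 34.7 and 39.6 CPM against 35.6 and 35.7 CPM (0.02, -0.23 to 0.28). Under scaling to library size in place of TMM, which shifts the median of all genes to -0.09, the values of Erbb2 and Erbb3 turned to -0.03 and -0.06. Lrig1 was at 29.0 and 30.9 CPM against 27.1 and 25.02 CPM (-0.12, -0.31 to 0.07). Tgfa was at 4.86 and 5.62 CPM against 5.16 and 6.13 CPM (0.19, -0.23 to 0.61) and Egf at 0.390 and 0.343 CPM against 0.514 and 0.378 CPM (0.36, -0.37 to 1.10). The intervals of the receptors and of Lrig1 were narrower than those of Tgfa and Egf.

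**Figure D2:**
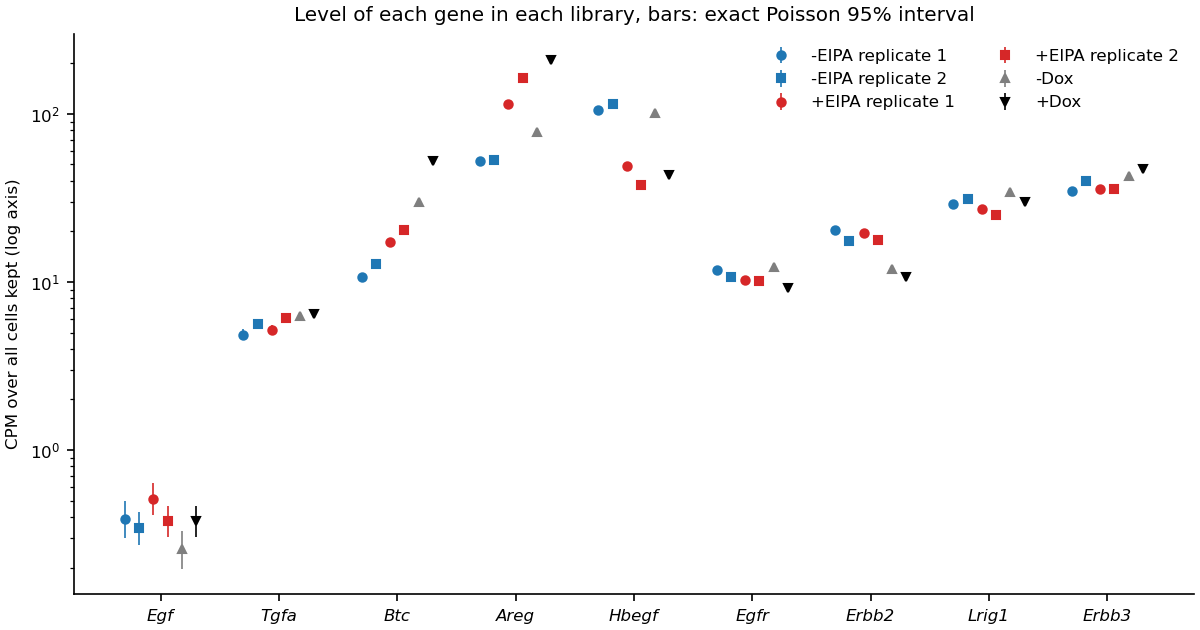
Level of 9 genes over all kept cells (CPM, log axis), with 1 point per library and bars for the exact Poisson 95% interval, which covers counting error only. Areg and Btc are higher and Hbegf is lower in both +EIPA libraries than in the -EIPA libraries and in +Dox than in -Dox, and the receptors and Lrig1 differ less.

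Enterocyte-like cells, the class with the largest part of the Areg UMIs, made up 19.4% and 14.1% of the cells in -EIPA, 22.3% and 19.6% in +EIPA, 23.6% in -Dox and 28.9% in +Dox. Revival-like cells made up 0.674% and 1.25% in -EIPA, 1.14% and 2.81% in +EIPA and 1.01% in each CRISPR library. Without correction for library, this class made up 0.777% and 0.851% in -EIPA and 2.95% and 4.68% in +EIPA. In the CRISPR libraries it then made up 0.438% in -Dox and 2.91% in +Dox, so its share depends on that step. The summed level of 24 enterocyte marker genes was 8734 and 4958 CPM in -EIPA, 15417 and 13705 CPM in +EIPA, 10315 CPM in -Dox and 21751 CPM in +Dox. The level of Areg was therefore also computed with the shares of the clusters held fixed. The clusters were those formed after correction for library, and the mix of cells within a cluster stayed free to differ. With each library rebuilt at the same share of UMIs in every cluster, Areg was at 66.4 and 66.1 CPM in -EIPA and at 109 and 142 CPM in +EIPA, a log2 ratio of mean CPM of 0.92 beside 1.40 without this step. For Btc this ratio was 0.59 at fixed shares and 0.68 without, and for Hbegf it was -1.35 and -1.34. This calculation was added after the values were seen.

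Within cell classes, Hbegf was lower and Areg and Btc were higher with EIPA in all 8 classes, by fitted log2 fold changes of -1.497 to -0.36 for Hbegf, 0.33 to 1.38 for Areg and 0.07 to 1.2001 for Btc. In single experiments the exceptions were Areg in EEC-like cells of replicate 1 (27.7 against 25.02 CPM, ratio 0.903) and Btc in ISC-like cells of replicate 2 (17.9 against 16.1 CPM, ratio 0.897). Hbegf in Goblet-like cells passed the test without the block, with 86.2 and 84.2 CPM in -EIPA and 47.4 and 41.2 CPM in +EIPA (log2 fold change -0.91, SE 0.11, adjusted p = 0.0467). That call was lost without -EIPA replicate 1, -EIPA replicate 2 or +EIPA replicate 2, with adjusted p of 0.201, 0.329 and 0.206. The Goblet-like call was also lost with likely doublets removed and without correction for library. Hbegf passed with the block in 8 of 8 classes, Areg in 7, Btc in 4, and Egfr and Lrig1 in 1 each, which is 21 of 66 pairs of member and class (beside 5.10% of pairs of gene and class) against 1 without the block (beside 0.0641%). The Areg calls include EEC-like cells, with ratios of 0.903 and 2.89 in the 2 experiments, and Tuft-like cells, with 1.07 and 3.79. Such calls do not show that the experiments agree. The 8 classes of a library also share any free RNA in it, which was not removed, so they are not separate results. The part of free RNA in these differences was not tested.

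In Enterocyte-like cells, the class with most Areg UMIs, Areg had a log2 fold change of 1.38 (SE 0.23) with the levels given above, Btc of 1.2001 (SE 0.15) and Hbegf, at 131 and 163 CPM in -EIPA and 67.5 and 42.3 CPM in +EIPA, of -1.27 (SE 0.23). Lrig1 was lower, at 13.4 and 16.8 CPM in -EIPA and 9.08 and 8.199 CPM in +EIPA (log2 fold change -0.65, SE 0.15). The adjusted p of these 4 genes was 0.0935, 0.0935, 0.0935 and 0.124 in this class, and all of them passed with the block. The class joins 5 clusters whose mix differed between the groups, and the one with the highest Areg and Btc, led by Tm4sf4, had 61 and 99 cells in -EIPA against 162 and 173 in +EIPA. The part of this mix in the differences within the class, that of the interaction with ISC-like cells included, was not tested. In ISC-like cells Hbegf was again lower (log2 fold change -1.18, SE 0.15, adjusted p = 0.464), while Areg at 14.6 and 18.2 CPM against 20.8 and 18.8 CPM differed little (0.33, SE 0.15, adjusted p = 0.999). The ISC-like class is 1 cluster that is formed after correction for library. Without correction the ISC-like cells lay in 3 clusters that differed by treatment, with 687 and 398 cells in -EIPA against 2202 and 2737 in +EIPA in one, 716 and 2109 against 119 and 52 in another, and 98.3% of cells from +Dox in the last. Over these clusters the log2 fold change with EIPA was 0.61 for Areg (adjusted p = 0.288), 0.18 for Btc (adjusted p = 0.734) and -1.41 for Hbegf (adjusted p = 0.127).

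In Revival-like cells Areg had a fitted log2 fold change of 1.00 and an SE of 0.13 (adjusted p = 0.0651), Btc one of 0.81 and 0.18 (adjusted p = 0.153) and Egfr one of 0.73 and 0.21 (adjusted p = 0.244), with Egfr levels of 17.8 and 18.9 CPM in -EIPA and 26.8 and 30.5 CPM in +EIPA. Areg, Btc, Egfr and Hbegf passed with the block. These values depend on which cells form the class. When libraries were clustered without correction for library, Areg in the Revival-like cluster was at 1093 and 857 CPM in -EIPA and 1030.2 and 1060 CPM in +EIPA, a fitted difference of 0.16 on the log2 scale with adjusted p = 1.000, and the differences for Btc and Egfr were 0.11 and 0.28. That cluster had Areg among its 10 leading genes. Its size was 98 and 155 cells in -EIPA against 389 and 667 in +EIPA.

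Set against all genes, the calls of members by edgeR's quasi-likelihood test stood as follows. Each count of members is followed by the share of all genes, and DESeq2 was run without the filter on low counts, on 9 or 10 members. In ISC-like cells 0 of 8 members were called (1 at an unadjusted p under 0.05 beside 3.59%, 1 of 9 by DESeq2 beside 0.0906%) and 0% of genes, and 1 member with the block against 5.70% of genes. In Proliferating-like cells 0 of 9 members were called (3 at an unadjusted p under 0.05 beside 4.48%, 1 of 10 by DESeq2 beside 0.543%) and 0% of genes, and 3 with the block against 2.76%. In Enterocyte-like cells 0 of 8 were called (4 at an unadjusted p under 0.05 beside 19.5%, 3 of 10 by DESeq2 beside 3.45%) and 0% of genes, and 4 with the block against 9.56%. Goblet-like cells had 1 of 8 called (3 at an unadjusted p under 0.05 beside 7.48%, 2 of 9 by DESeq2 beside 0.341%) against 0.139% of genes, and 3 with the block against 5.88%. Paneth-like cells had 0 of 9 (2 at an unadjusted p under 0.05 beside 4.21%, 2 of 9 by DESeq2 beside 0.383%) against 0.159%, and 2 with the block against 3.06%. EEC-like cells had 0 of 8 (2 at an unadjusted p under 0.05 beside 2.83%, 1 of 9 by DESeq2 beside 0.171%) against 0.0731%, and 2 with the block against 1.49%. Tuft-like cells had 0 of 8 (3 at an unadjusted p under 0.05 beside 3.86%, 0 of 9 by DESeq2 beside 0.0384%) against 0.0512%, and 2 with the block against 0.861%. Revival-like cells had 0 of 8 (4 at an unadjusted p under 0.05 beside 11.2%, 1 of 9 by DESeq2 beside 0.839%) against 0.109%, and 4 with the block against 12.0%. With the block, the share of members called was above that of all genes in each class, in ISC-like cells through 1 call only. Most of these calls were of the same genes in the same libraries, with Hbegf called in 8 classes, Areg in 7 and Btc in 4. The classes are thus not separate results, and the calls do not stand for the whole family. The members called include Areg in EEC-like and Tuft-like cells, where its ratios in the single experiments were unlike.

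**Figure D3:**
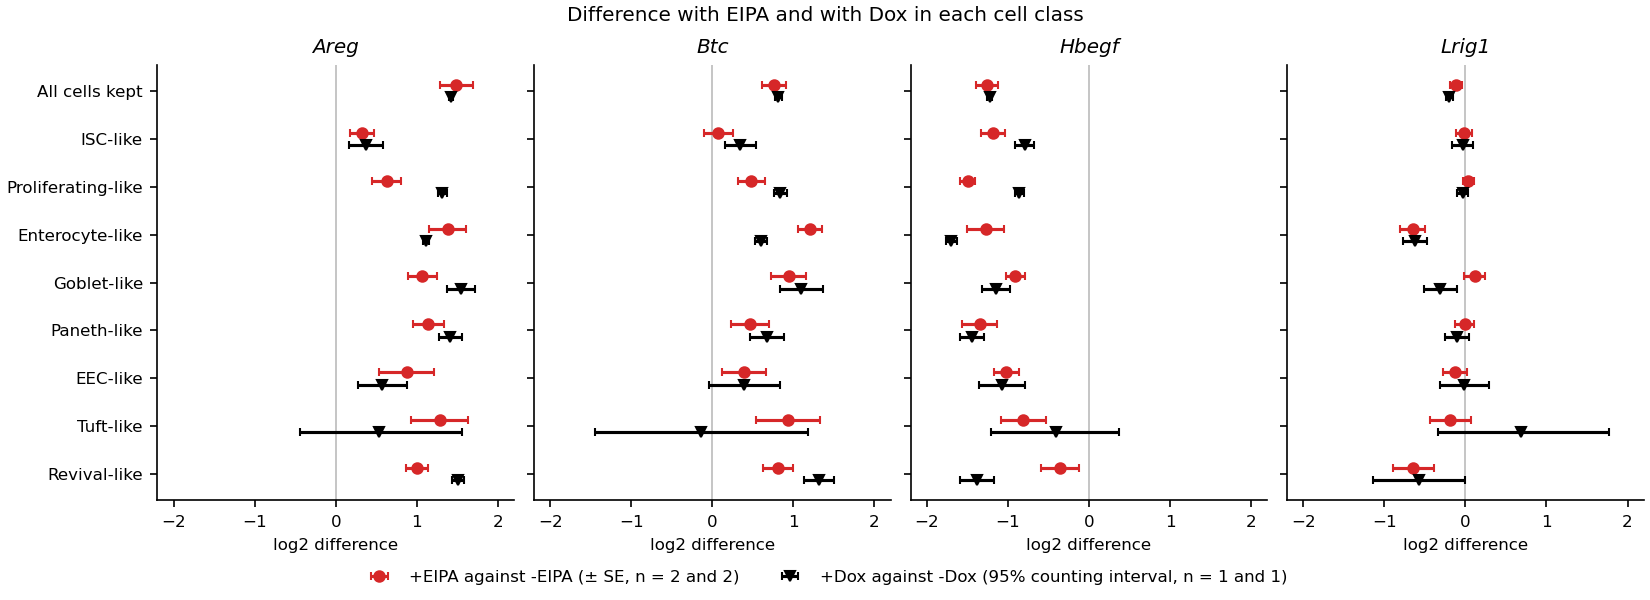
Log2 difference of Areg, Btc, Hbegf and Lrig1 over all kept cells and in each class, for +EIPA against -EIPA (circles, fitted by edgeR with bars of 1 SE, 2 libraries against 2) and for +Dox against -Dox (triangles, 1 library against 1, bars are 95% intervals for counting error only). With likely doublets kept, as plotted, Hbegf lies below 0 and Areg above 0 in all 8 classes for both treatments, with a counting interval that spans 0 for Dox in Tuft-like cells. With likely doublets removed, the Dox differences of Hbegf in Tuft-like cells (0.13) and of Areg in EEC-like cells (-0.19) had the opposite sign.

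The EIPA effect on Btc was larger in Enterocyte-like than in ISC-like cells. In ISC-like cells Btc was at 12.9 and 17.9 CPM in -EIPA and 15.2 and 16.1 CPM in +EIPA, groups that overlapped, while the enterocyte-like levels did not. Lack of overlap was common, at 7690 of 12677 genes in Enterocyte-like cells and 4120 of 11678 genes in ISC-like cells. The difference of the log2 fold changes was 1.14 (SE 0.21, adjusted p = 0.0302 by edgeR's quasi-likelihood test of the interaction), and Btc was the only member of 8 tested that passed, against 1.61% of 13008 genes. For Areg the difference was 1.07 (SE 0.25, adjusted p = 0.0575), for Tgfa 0.84 (SE 0.24, adjusted p = 0.0986) and for Lrig1 -0.61 (SE 0.15, adjusted p = 0.0657). For Hbegf it was -0.10 (SE 0.24, adjusted p = 0.841). Under scaling to library size the difference for Btc was 1.03 with adjusted p = 0.0605, and without correction for library, where the ISC-like clusters differed by treatment, it was 0.86 with adjusted p = 0.0178. On those clusters the difference was 0.56 for Areg (adjusted p = 0.0824), 0.64 for Tgfa (adjusted p = 0.0777) and -0.13 for Lrig1 (adjusted p = 0.526).

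Dox gave 1 library per group, so its values have no replicate check and no test, and the intervals cover counting error only. Over all cells Areg was at 78.3 CPM in -Dox and 209.5 CPM in +Dox, a ratio of 2.68 (95% interval 2.63 to 2.72). Btc was at 29.9 and 52.5 CPM, a ratio of 1.76 (1.70 to 1.81), and Hbegf at 101 and 43.3 CPM, a ratio of 0.428 (0.419 to 0.439). At fixed shares of the clusters formed after correction for library, the ratio was 2.28 for Areg, 1.73 for Btc and 0.462 for Hbegf. These 3 were the members past 1.5-fold of 9 tested, beside 19.9% of 15417 genes. The other ratios were 1.46 for Egf, from 60 and 89 UMIs, 1.04 for Tgfa, 0.752 for Egfr, 0.892 for Erbb2, 1.11 for Erbb3 and 0.872 for Lrig1. The EIPA comparison used no library of this pair, and its ratios per experiment were 2.18 and 3.09 for Areg, 1.61 and 1.59 for Btc and 0.465 and 0.332 for Hbegf.

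By class, Hbegf was lower in +Dox in all 8 classes, at ratios from 0.308 in Enterocyte-like to 0.752 in Tuft-like cells (28 and 31 UMIs, 95% interval 0.435 to 1.30), and Areg was higher in all 8, from 1.29 in ISC-like to 2.92 in Goblet-like cells. Clustered without correction for library, the ratio of Areg in ISC-like cells was 3.37 (22.0 and 74.1 CPM), so the order of the classes depends on that step. The uncorrected ISC-like class made up 10.5% of the cells in -Dox and 21.7% in +Dox. In +Dox, 2470 of its 2617 cells lay in a cluster with 98.3% of cells from +Dox. Btc was higher in 7 of 8, from 1.27 in ISC-like to 2.49 in Revival-like cells, and its ratio in Tuft-like cells was 0.909 from 11 and 12 UMIs. These directions did not all hold with likely doublets removed, when the ratio of Areg in EEC-like cells was 0.879 (68 and 169 UMIs, 95% interval 0.660 to 1.18), that of Hbegf in Tuft-like cells 1.10 (18 and 28 UMIs, 0.586 to 2.11) and that of Btc in Tuft-like cells 1.13 (5 and 8 UMIs, 0.326 to 4.38). In ISC-like cells 2 of 9 members were past 1.5-fold, beside 8.53% of genes, and in Proliferating-like cells 4 of 9, beside 11.5%. In Enterocyte-like cells it was 4 of 8, beside 26.0% of genes, and in Goblet-like cells 3 of 8, beside 10.1%. Paneth-like cells had 4 of 9 beside 9.71%, EEC-like cells 1 of 8 beside 10.8%, Tuft-like cells 1 of 5 beside 20.6% and Revival-like cells 5 of 8 beside 26.1%. In EEC-like and Tuft-like cells these shares are near those of all genes. Of the members counted, the interval spanned 1 for Egf in ISC-like (0.671 to 5.03) and Paneth-like cells (0.254 to 1.43), Lrig1 in Tuft-like cells (0.789 to 3.41) and Tgfa in Revival-like cells (0.984 to 2.62).

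Egfr and Lrig1 in +Dox were also read by class. Egfr was at 10.6 CPM in -Dox and 31.0 CPM in +Dox in Revival-like cells, a ratio of 2.92 from 27 and 113 UMIs, and at 14.7 and 10.2 CPM in Proliferating-like cells, a ratio of 0.691. Lrig1 was at 16.6 and 10.8 CPM in Enterocyte-like cells, a ratio of 0.651, and at 55.6 and 54.2 CPM in ISC-like cells, a ratio of 0.976. Without correction for library, Lrig1 in ISC-like cells was at 52.3 and 35.2 CPM, a ratio of 0.673 (95% interval 0.625 to 0.725), close to that in Enterocyte-like cells. That uncorrected class made up 10.5% of the cells in -Dox and 21.7% in +Dox, so it does not hold like parts of the libraries. The part of this membership in the ratio was not tested. Clustered in the same way, Areg in Revival-like cells was at 1430.3 and 1602 CPM and no longer past 1.5-fold, and Egfr there had a ratio of 1.88 from 12 and 199 UMIs. The median depth per cell was 11952 UMIs in -Dox and 17020 in +Dox, and the part of depth, sort and clone in these ratios was not tested.

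Of 55 further genes of the pathway, 52 were tested with EIPA over all cells and 0 were called by edgeR's quasi-likelihood test (6 at an unadjusted p under 0.05, which is 11.5% beside 10.1% of all genes, and 3 by DESeq2, Fos, Egr1 and Spry1, beside 2.53% of all genes). Their median log2 fold change was -0.01, beside -0.0032 over all genes. With the block 6 were called, beside 5.28% of all genes, of which Nrg4 was higher and Errfi1, Lrig3, Fos, Egr1 and Spry1 were lower. All 5 shedding genes, 7 adaptors, 10 RAS-MAPK genes and 5 PI3K-AKT genes remained uncalled in both fits, with log2 fold changes between -0.17 and 0.37. The 16 ERK target and feedback genes had a median log2 fold change of -0.04, with values from -1.35 to 0.39. With the block 3 of these 16 were called, beside 5.28% of all genes. Fos and Egr1, immediate-early transcription factors induced by ERK, had the largest differences of the target genes and do not stand for the group. Fos was at 313 and 391 CPM in -EIPA, 122 and 139 CPM in +EIPA, 418 CPM in -Dox and 148 CPM in +Dox (log2 fold change -1.35, SE 0.16, adjusted p = 0.239). Egr1 was at 143 and 166 CPM in -EIPA, 96.7 and 89.5 CPM in +EIPA, 212 CPM in -Dox and 138 CPM in +Dox (-0.65, SE 0.11, adjusted p = 0.244). Both were thus lower in both +EIPA libraries than in -EIPA and in +Dox than in -Dox.

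Spry1, a feedback inhibitor of receptor signalling, was at 8.95 and 10.4 CPM in -EIPA, 6.09 and 5.81 CPM in +EIPA, 9.47 CPM in -Dox and 7.42 CPM in +Dox (log2 fold change -0.62, SE 0.12, adjusted p = 0.262). Errfi1, which encodes the EGFR inhibitor MIG6, was at 53.0 and 68.2 CPM in -EIPA, 36.0 and 43.5 CPM in +EIPA, 54.1 CPM in -Dox and 40.1 CPM in +Dox. Nrg4, an ERBB4 ligand, was at 1.13 and 0.577 CPM in -EIPA, 2.11 and 1.58 CPM in +EIPA, 2.39 CPM in -Dox and 5.83 CPM in +Dox (1.202, SE 0.37, adjusted p = 0.406). Its receptor Erbb4 had 7 UMIs and Nrg3 none in the 6 libraries. For Nrg2, with 105 UMIs in all, the log2 fold change was -0.69 with an SE of 0.47 (adjusted p = 0.727). By class, Fos in Tuft-like cells was the only gene of the list called without the block (-1.44, adjusted p = 0.0331, beside 0.0512% of genes in that class), and no gene of the list was called there with likely doublets removed (0 of 37) or without correction for library (0 of 45).

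**Figure D4:**
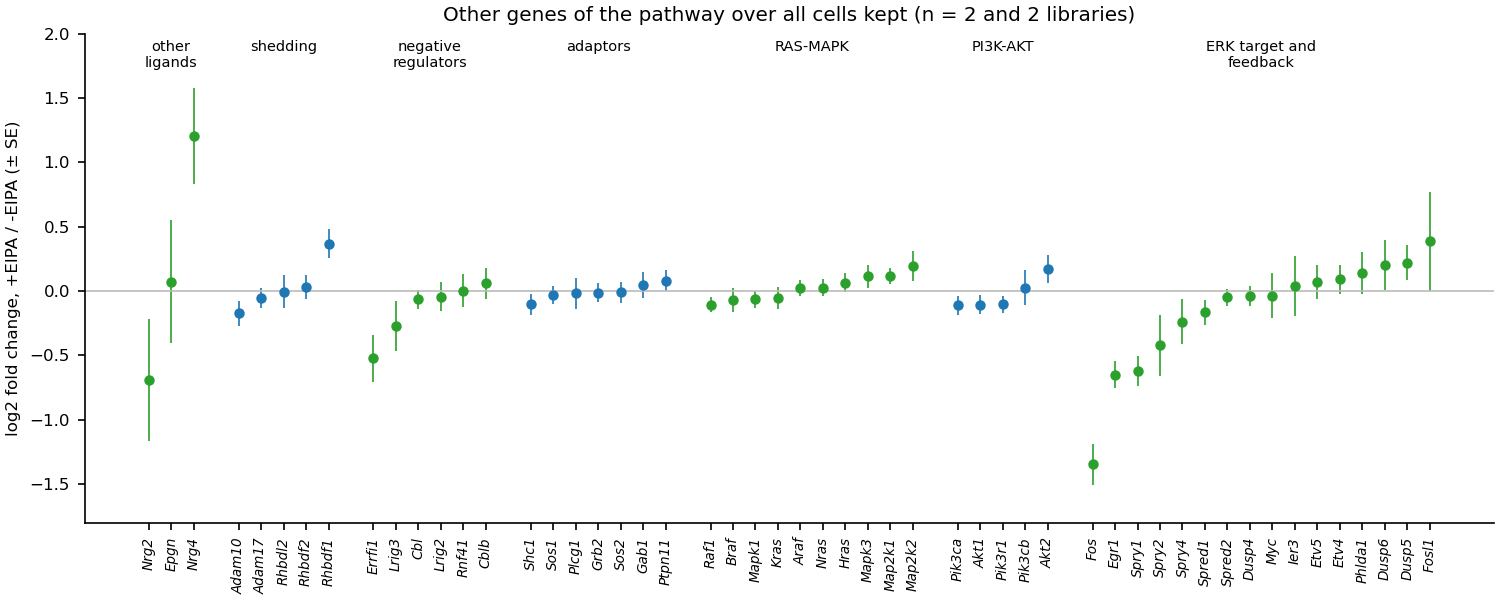
Log2 fold change with EIPA over all kept cells (2 libraries against 2, bars are 1 SE) for the 52 pathway genes tested, in groups by role. Most genes lie near 0, while Nrg4 lies above it at 1.202 and Fos, Nrg2, Egr1 and Spry1 lie below it at -1.35, -0.69, -0.65 and -0.62.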

How the data were processed

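The authors sequenced 10x 3′ libraries of single cells and aligned and counted them with Cell Ranger 6.1.2 against mm10 (GRCm38). The deposited matrices hold whole-number UMI counts per gene and cell barcode, not normalized, and 0 columns belonged to other samples. Sample groups came from the labels. Cells with at least 1000 genes and at most 20% mitochondrial UMIs were kept (57.0% to 84.4% of the 14319 to 25481 barcodes of a library), limits chosen here because the study's were not given in the sources used here.

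Cell classes were rebuilt, since no annotation was used here: 3000 variable genes, 45 components, Harmony correction for library and Leiden clustering at resolution 0.8 (scanpy 1.11.5, igraph 0.11.9). The share of each cell's 20 neighbours from its own library was 27.7% after correction and 57.0% before. The 10 genes and their 55 pathway genes were kept out of the clustering. Clusters were named from 155 marker genes, and a rule that leaves clusters led by genes at rRNA loci unnamed was added after the clusters were seen. Names may differ from those of the study. Scrublet's automatic threshold marked 0 cells in 2 libraries, so doublets stayed in, and the 10% of cells with the highest score were removed as an alternative.

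Sums of the counts were taken for every library, over all kept cells and within each class, and given as CPM. EIPA was tested on the sums with edgeR 4.0.16 (R 4.3.3, quasi-likelihood F test after TMM scaling and filterByExpr), with p-values adjusted by Benjamini-Hochberg across every tested gene and a threshold of 0.05, with n = 2 libraries per group. DESeq2 1.42.0 was an alternative. The p-values set a difference against the spread between these libraries, an estimate that is partly shared over genes. The interaction of class and EIPA had library as a factor. Dox, with 1 library per group, was given as ratios with exact 95% intervals, and past 1.5-fold was counted. Sums with 3 UMIs or fewer gave no ratio, and the counts past 1.5-fold took only genes with at least 20 UMIs in the 2 libraries together. UMIs from free RNA were not removed. A share of cells with a UMI was computed after thinning to 5000 UMIs. Likeness between genes was Pearson's r of log2(CPM + 1) over genes with at least 20 UMIs in each library. The statistical scripts were tested on simulated data with 200 changed genes.

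The replicate numbers pair the WT libraries: the study's source data give same-numbered libraries as 1 experiment, and their deviations from the group means correlated at 0.736 over all cells and at 0.189 to 0.805 in the classes. The fit with the replicate number as a block was run beside the fit without it.

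The members, the pathway and marker lists and the comparisons were chosen with earlier results of these data known. Named genes were the 10 members and, of the pathway list, those past an adjusted p of 0.05 or among the 5 with the largest log2 fold change over all cells, and Errfi1 and Lrig3, called with the block, were named after their values were seen. Positions are from GENCODE vM21 and upstream sequences from RefSeq. The level of the gene targeted by CRISPR and the gene most like Tgfa are not reported here.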

Additional observations from a re-analysis of the deposited data

Results flagged for a closer look

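The log2 fold change of Btc with EIPA differed between cell classes, being 1.14 larger in Enterocyte-like than in ISC-like cells (SE 0.21, adjusted p = 0.0302 by edgeR's quasi-likelihood test of the interaction, 2 libraries per group). The fitted log2 fold change was 1.2001 in Enterocyte-like cells, with ratios of 1.86 and 2.28 in the 2 experiments, and 0.07 in ISC-like cells, with ratios of 1.18 and 0.897. The adjusted p was 0.0605 when libraries were scaled by size in place of TMM and 0.0178 with cells clustered without correction for library, where the difference was 0.86.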

How the results depend on the processing

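With EIPA over all cells, the members called numbered 0 of 9 without the block, 3 of 10 by DESeq2 (beside 2.53% of genes), 2 of 10 with no filter on low counts (0.866%), 3 of 9 with the replicate block (5.28%) and 0 under each of the other alternatives, leaving out any library included. The pathway genes called numbered 0, with 3 by DESeq2, 2 with no filter, 6 with the replicate block and 0 to 1 on leaving out a library, the 1 arising without -EIPA replicate 1 (0.830% of genes). Pairs of member and class called numbered 1 of 66 (beside 0.0641% of pairs of gene and class). They numbered 11 of 74 by DESeq2 (0.759%), 3 under scaling to library size (0.116%), 15 of 74 with no filter (2.09%) and 21 with the replicate block (5.10%). With likely doublets removed they numbered 0 of 63 (0.0323%), and without correction for library 1 of 66 (0.168%), in Enterocyte-like cells. Fits that leave out a library hold 1 library in a group, so their counts of pairs, each above that of the main fit, are not given. The adjusted p of Hbegf in Goblet-like cells was 0.111 with likely doublets removed and 0.0593 without correction for library. The interaction called 0 members under scaling to library size. The cause of these differences was not tested.

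The class with the highest mean stayed the same for 8 of 9 members with likely doublets removed, 7 without correction for library (Erbb2 moved to Enterocyte-like, Erbb3 to Revival-like) and 7 to 9 on leaving out a library. The number of Dox ratios past 1.5-fold was 27 throughout, but not over the same pairs of gene and class. Of 747 log2 fold changes with EIPA of a member over all cells or in a class under an alternative, 70 had the opposite sign to the value reported, 0 of them of Areg or Hbegf and 2 of Btc, and their adjusted p was at least 0.519. Of 150 such Dox ratios, 17 had the opposite direction. Over all cells the changes were Erbb2 (-0.029) and Erbb3 (-0.058) by library size and, on leaving out a library, Egfr (-0.109 to 0.0017, positive without -EIPA replicate 1), Erbb2 (-0.040 to 0.150, negative without -EIPA replicate 2) and Erbb3 (-0.081 to 0.135, negative without -EIPA replicate 1 or +EIPA replicate 2). For Btc they were in ISC-like cells (-0.13 to 0.349, negative without -EIPA replicate 1) and in EEC-like cells (-0.021 to 0.71, negative without +EIPA replicate 2).

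With 2 libraries per group, differences under the spread between libraries were not detectable, and Egf and Ereg were limited by their few UMIs. Revival-like and Tuft-like sums hold as few as 85 and 56 cells of a library.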

Other observations

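Some levels lay outside the named classes. Hbegf was highest of all 23 clusters in an unnamed cluster of cells with few UMIs led by Gm26917 and Lars2, with a mean of 171 CPM over the 6 libraries, and next in an unnamed cluster led by mitochondrial transcripts and Kcnq1ot1, with a mean of 147 CPM. Lrig1 was highest in the latter cluster, at a mean of 57.9 CPM. The median UMI count of these clusters was 0.219 and 0.309 of that of their libraries.

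Erbb2 was lower in both CRISPR libraries (12.0 and 10.7 CPM over all cells) than in the 4 WT libraries (17.6 to 20.3 CPM), and Btc was higher (29.9 and 52.5 CPM against 10.7 to 20.3 CPM). Line, clone and experiment cannot be told apart in this difference, and it was not tested.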
